A study of Homo sapiens with 36 samples.

Results

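UPN-1 vehicle cultures sampled 72 h after the start of treatment were compared with those sampled at 24 h. UPN-1 is an established line of mantle cell lymphoma, a B-cell cancer that typically overexpresses cyclin D1. The libraries were found by their labels (line UPN-1, treatment DMSO) and numbered 6 of the 36 in the series, 3 biological replicates at each time. Elsewhere in the series the lines JEKO and MINO, also of mantle cell lymphoma, were handled the same way, and all 3 lines also received GS716054, which blocks the KDM5 histone demethylases. Every vehicle culture carried DMSO alone, in a serum-supplemented medium. Medium changes, cell density and viability at sampling are not given in the sources used here, and nothing in the labels says whether the replicates were grown from separately started cultures, so p-values measure the spread between these libraries, which may be partly technical. One line stands for the disease here, and 24 h cultures are the reference rather than freshly plated cells.

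Several programmes are known to change as a suspension culture grows and uses its medium. Hypoxia-inducible factors are degraded when oxygen is plentiful, and when it is scarce they switch on genes for glucose uptake, glycolysis, blood vessel growth and mitophagy through a short DNA core motif. Sterol regulatory element-binding proteins raise cholesterol and fatty acid synthesis, while liver X receptors respond to oxysterols and switch on sterol export. Ribosome biogenesis, driven in part by MYC and its E-box motif, and the heat shock chaperones that fold new proteins are both high in rapidly growing cells.

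The 6 libraries held between 9720919 and 14125495 reads assigned to genes. Values below are CPM, counts scaled to a common library size with edgeR's TMM factors, and changes are log2 fold changes of 72 h over 24 h. These are shares of the RNA, so that a smaller share of expressing cells and less RNA per cell cannot be told apart. All 8 markers of B cells and mantle cell lymphoma were detected, CCND1 between 2394 and 2458 CPM at 24 h and between 2023 and 2737 at 72 h. CD2 and GNLY of T and NK cells, CD163 and MARCO of macrophages, DCN and LUM of fibroblasts and HBB of red cells were at 0 in all 6, and the summed markers lay at 0.737 to 1.08 CPM at 24 h and 0.631 to 1.72 at 72 h for monocytes and macrophages and at 0.632 to 1.15 and 0.488 to 2.52 for fibroblasts and epithelium. The erythroid sum was at most 0.0955 CPM at 24 h and 0.488 to 1.49 at 72 h, without overlap, and its part in the results was not tested. T and NK cell markers summed to between 49.1 and 60.8 CPM over both times, of which the T-cell receptor constant gene TRAC made 45.5 to 57.5.

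The libraries at 72 h were far less alike than those at 24 h. The median SD of log2 CPM over genes was 0.143 at 24 h and 0.261 at 72 h. Along the first principal component of the 12 UPN-1 libraries, which held 50.8% of the variance, the vehicle libraries at 24 h scored -34.1, -30.2 and -36.9 for replicates 1, 2 and 3, and those at 72 h scored 21.9, 57.2 and -10.7. Replicate 3 at 72 h thus lay between the 24 h libraries and its own group. Its log2 CPM correlated with those of the 24 h libraries at r = 0.984 to 0.986, with replicate 1 at 72 h at 0.978 and with replicate 2 at 0.965, across genes of these libraries, which are not independent replicates. It held 12072352 gene reads, within the range of the others. Its share of mitochondrially encoded reads, 1.91%, was nearer the 24 h range of 1.52 to 1.87% than the 2.66 and 2.17% of replicates 1 and 2, and 20390 genes had a read in it, against 19553 to 20083 at 24 h and 21163 and 21459 in replicates 1 and 2.

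Of 15248 genes tested, 224 (1.47%) changed between 24 and 72 h by edgeR's quasi-likelihood test at a Benjamini-Hochberg adjusted p under 0.05, of which 206 (1.35%) were higher at 72 h and 18 (0.118%) lower. The 3 libraries of one time did not overlap those of the other for all 224, against 27.5% of all genes tested. Called genes moved by a median of 1.3 log2 units in either direction. At an unadjusted p under 0.05 there were 3888 genes (25.5%), 2318 higher and 1570 lower. DESeq2 called 1026 (6.73%), 772 higher (5.06%) and 254 lower (1.67%). The spread was estimated over all 12 UPN-1 libraries, the 6 inhibitor-treated ones included, taken as independent (8 residual degrees of freedom). Same-numbered vehicle and inhibitor libraries deviated together, so these degrees of freedom may be too many and the p-values too small. With the 6 compared libraries alone (4 residual degrees of freedom) edgeR called 1 gene, CKB. Without replicate 3 at 72 h the count rose to 3091 (20.3%), with 1749 higher (11.5%) and 1342 lower (8.8%), and it included all 224. Without replicate 1 at 72 h it fell to 44, without replicate 2 at 72 h to 2, and without any one of the 24 h libraries to 1. The genes at an unadjusted edgeR p under 0.05 numbered 3182, 1953 and 5582 without replicates 1, 2 and 3 at 72 h. Without replicates 1, 2 and 3 at 24 h they numbered 2763, 3064 and 2638. CKB alone stayed called whichever of the 6 libraries was left out. In fits with only 2 libraries at one time the spread was pooled over the 4 groups.

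**Figure D1:**
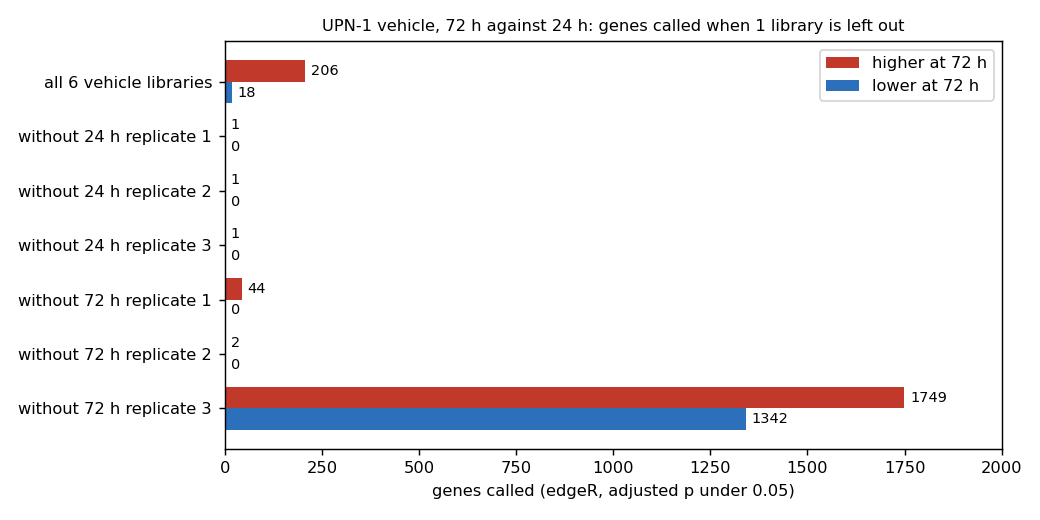
Number of genes called higher (red) or lower (blue) at 72 h than at 24 h in UPN-1 vehicle cultures (x axis, adjusted edgeR p under 0.05), with all 6 libraries and with each library left out in turn (y axis). The fit without 72 h replicate 3 gave 1749 higher and 1342 lower genes, against 206 and 18 with all 6 libraries and 1 when any 24 h library was left out.

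CKB, the brain-type creatine kinase that buffers ATP through phosphocreatine (ENSG00000166165, GRCh38 chromosome 14, 103519667 to 103522833), had the most even change. It stood at 14.2, 13.9 and 14.7 CPM at 24 h in replicates 1, 2 and 3 and at 55.4, 58.7 and 50.7 CPM at 72 h. The 72 h libraries were all well above the 24 h ones, and replicate 3 was as high as the other two within the spread of the group. Means were 14.3 ± 0.407 and 54.9 ± 3.99 CPM (SD, n = 3 each), for a log2 ratio of 1.94 (SE 0.142, adjusted edgeR p 6.27e-06). Leaving out any of the 6 libraries kept the log2 fold change between 1.89 and 1.99 and the adjusted p at or under 2.6e-04.

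Genes of the hypoxia response were higher at 72 h in replicates 1 and 2 and little changed in replicate 3. Of 26 genes listed, 25 passed the count filter (P4HA2 did not), and 3 of the 25 rose by edgeR at an adjusted p under 0.05, PFKFB4, VEGFA and DDIT4, with none falling. Of all genes tested 1.35% were called higher. The log2 fold change was above 0 for 25 of 25, with a median of 1.05 against 0.02 over all genes tested. At an unadjusted p under 0.05 there were 21 higher (15.2% of all genes were), and DESeq2 called 9 higher (5.06% of all genes). By library, the median difference from the 24 h mean was 0.94, 1.64 and 0.13 on the log2 scale for replicates 1, 2 and 3 at 72 h. Without replicate 3, 21 of the 25 were called higher (11.5% of all genes were) with a median of 1.36.

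PFKFB4, a bifunctional enzyme that sets the level of the glycolytic activator fructose-2,6-bisphosphate (ENSG00000114268, chromosome 3, 48517684 to 48562015), stood at 1.62, 1.90 and 1.51 CPM at 24 h and at 26.6, 91.0 and 4.15 CPM at 72 h. All 3 libraries at 72 h were higher than every 24 h library, but replicate 2 was far above replicate 3. The means were 1.68 ± 0.199 and 40.6 ± 45.1 CPM (SD, n = 3 each), for a log2 ratio of 4.60 (SE 1.03, adjusted edgeR p 0.0444). VEGFA, the vascular endothelial growth factor (ENSG00000112715, chromosome 6, 43770184 to 43786487), stood at 16.1, 18.7 and 14.4 CPM at 24 h and at 68.2, 118.8 and 19.4 CPM at 72 h. Replicate 3 at 72 h barely exceeded the highest 24 h library. Its log2 fold change was 2.07 (SE 0.482, adjusted edgeR p 0.0475), or 2.51 without replicate 3. DDIT4, an inhibitor of mTORC1 signalling induced by hypoxia and other stresses (ENSG00000168209, chromosome 10, 72273919 to 72276036), stood at 70.3, 92.1 and 77.2 CPM at 24 h and at 309, 309.2 and 107.8 CPM at 72 h. Replicates 1 and 2 were alike and replicate 3 was just above the 24 h range, for a log2 fold change of 1.60 (SE 0.321, adjusted edgeR p 0.0355). The calls of PFKFB4, VEGFA and DDIT4 were lost without any one of the 24 h libraries or without replicate 1 or 2 at 72 h, with adjusted edgeR p values from 0.0652 to 0.226, and were kept without replicate 3.

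Among the members that did not pass the test, the mitophagy receptor BNIP3 stood at 67.9, 79.9 and 71.5 CPM at 24 h and at 171.9, 457.6 and 97.1 CPM at 72 h, without overlap (log2 fold change 1.73, adjusted edgeR p 0.0616). CA9, the carbonic anhydrase used as a marker of hypoxic tumour cells, was near or at 0 in every library (highest 0.392 CPM) except replicate 2 at 72 h, where it reached 15.1 CPM. ADM, adrenomedullin, was at 11.4 and 16.6 CPM in replicates 1 and 2 at 72 h and at 0.650 CPM in replicate 3, under its lowest 24 h library of 0.789 CPM. The oxygen sensor EGLN1 and the ubiquitin ligase component WSB1 differed little between times, with log2 fold changes of 0.09 and 0.17 (adjusted edgeR p 0.599 and 0.600).

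**Figure D2:**
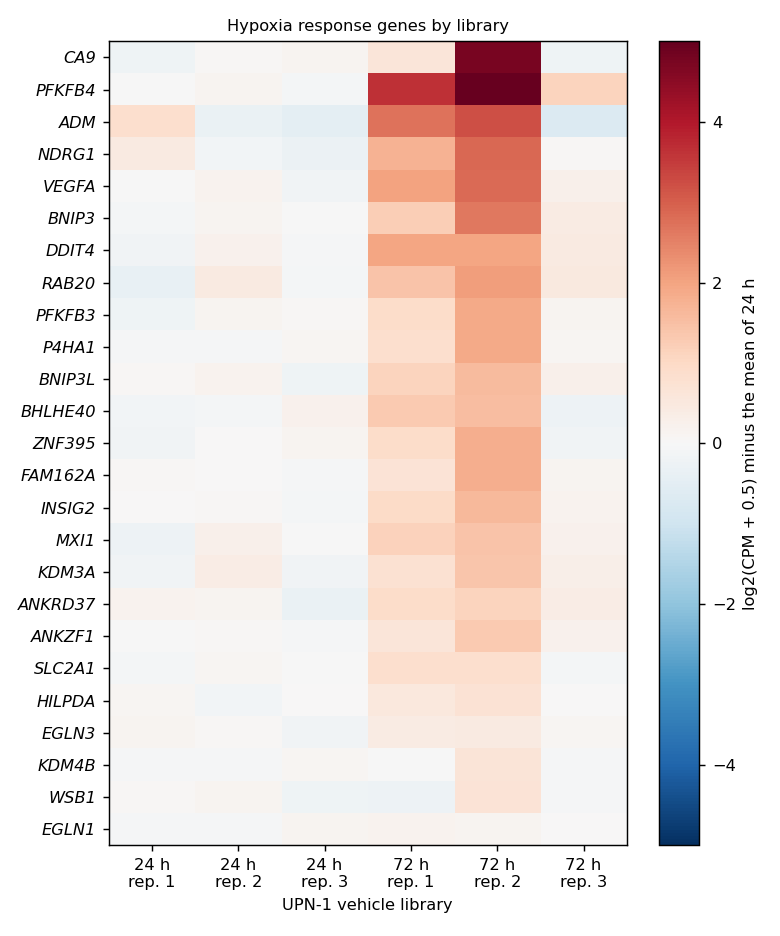
Each cell is log2(CPM + 0.5) of 1 hypoxia response gene (rows, the 25 tested, ordered by size) in 1 UPN-1 vehicle library (columns) minus the gene's mean over the 3 libraries at 24 h. Replicate 2 at 72 h is the darkest red column (CA9 at 15.1 CPM, PFKFB4 at 91.0 CPM), replicate 1 is paler, and replicate 3 is close to the 24 h columns (VEGFA at 19.4 CPM against at most 18.7 at 24 h).

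The core of the hypoxia-responsive element, ACGTG, was searched on both strands from 250 bases before to 50 bases after the first RefSeq start of each gene (RefSeq promoter sequences, GRCh38.p14). It was found for 11 of the 18 tested members with an entry (61.1%), against 21.6% of 27305 promoters. Those promoters, here and for the motifs below, include genes that were not tested, so the 2 shares are of unlike sets. The core lies inside the E-box CACGTG, so a match of the longer motif is counted here too. EGLN1 and WSB1, which differed little between times, were among those with a match. The promoter of DDIT4, the called member with a match, and 25-base windows of some other members are shown 5′ to 3′ to let the shared core be read, with the core in capitals. The window of DDIT4 covers 200 to 21 bases before the start, and the offsets of the match shown from the start are -125 for DDIT4, -134 for BNIP3, -143 for ANKRD37, -86 for P4HA1 and -84 for FAM162A. Each window is read on the strand of the match shown, which is the gene's own strand for DDIT4 and ANKRD37 and the opposite one for BNIP3, P4HA1 and FAM162A. BNIP3 also had a match on its own strand at -133, and ANKRD37 had further ones at -162 and -161.
DDIT4, chr10:72273724-72273903, plus strand: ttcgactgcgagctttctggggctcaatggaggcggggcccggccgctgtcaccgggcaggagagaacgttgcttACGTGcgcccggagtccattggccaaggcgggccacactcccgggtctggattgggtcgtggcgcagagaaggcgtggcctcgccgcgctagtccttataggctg
BNIP3, chr10:131982043-131982067, plus strand: tgcgtgtggcACGTGcggcgcgtgc
ANKRD37, chr4:185396688-185396712, plus strand: gtgtttgtgtACGTGcggccgtggc
P4HA1, chr10:73096938-73096962, plus strand: agccctcgctACGTGagctcgatca
FAM162A, chr3:122384088-122384112, minus strand: ggcgtgtaggACGTGcgccacgcgc
PFKFB4 had an entry with no match in this window, and VEGFA had no entry. A match is a description of the letters, and binding was not measured.

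Glycolysis genes moved less than the hypoxia genes as a set. Of 22 tested, 1 rose by edgeR (ALDOC) and none fell, where 1.35% of all genes were called higher. At an unadjusted p under 0.05, 10 were higher and 1 lower (15.2% and 10.3% of all genes were). The median log2 fold change was 0.23, and without replicate 3 at 72 h there were 9 higher and 1 lower, against 11.5% and 8.8% of all genes. ALDOC, the brain-type aldolase (ENSG00000109107, chromosome 17, 28573115 to 28576948), stood at 5.82, 7.16 and 5.31 CPM at 24 h and at 39.2, 132.6 and 13.01 CPM at 72 h. Even the lowest 72 h library, replicate 3, was above the 24 h range, and the log2 fold change was 3.34 (SE 0.732, adjusted edgeR p 0.043, and from 0.0619 to 0.208 without any one library other than replicate 3 at 72 h). The antisense gene ENSG00000265168 lies almost wholly inside ALDOC, and since strand-specific counting is not stated, reads of both may be mixed. The lactate exporter SLC16A3 was at 50.5 and 138.5 CPM in replicates 1 and 2 at 72 h and at 13.7 CPM in replicate 3, within its 24 h range of 10.8 to 15.3 CPM. The abundant enzymes did not pass the test: GAPDH had 3465 to 3796 CPM at 24 h and 3368 to 4290 at 72 h, and LDHA had 1396 to 1472 and 1378 to 1482 CPM.

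Some genes of sterol and fatty acid metabolism rose. In the list of cholesterol synthesis and uptake, 4 of 24 tested genes rose (LSS, TM7SF2, INSIG1 and HMGCS1) and none fell, with a median log2 fold change of 0.28. In the list of cholesterol efflux and liver X receptor targets, 3 of 9 rose (SREBF1, ABCG1 and MYLIP) with a median of 0.56. In the fatty acid list, which also holds SREBF1, 3 of 14 rose (FADS2, SREBF1 and FADS1) with a median of 0.15, 7 members above 0 and 7 below. Of all genes tested 1.35% were called higher. The members higher at an unadjusted p under 0.05 numbered 12, 6 and 6 in the 3 lists (15.2% of all genes were), and DESeq2 called 10, 4 and 4 higher (5.06% of all genes). Without replicate 3 at 72 h there were 10, 5 and 5 called higher, with 1, 0 and 0 lower, against 11.5% and 8.8% of all genes. The medians by library at 72 h were 0.43, 0.19 and 0.29 for synthesis, 0.78, 0.60 and 0.35 for efflux and 0.24, -0.03 and 0.19 for fatty acids, in the order of replicates 1, 2 and 3. Replicate 1 was the highest in all 3 lists, and replicate 2 was near 0 for fatty acids.

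SREBF1, the transcription factor that drives lipid synthesis and is itself a liver X receptor target (ENSG00000072310, chromosome 17, 17810399 to 17837002), stood at 15.5, 17.4 and 15.8 CPM at 24 h and at 51.5, 39.7 and 27.0 CPM at 72 h. Its means were 16.2 ± 1.02 and 39.4 ± 12.2 CPM (SD, n = 3 each), for a log2 ratio of 1.28 (SE 0.223, adjusted edgeR p 0.0271). Replicate 3 had the smallest rise here too, but its level was still above every 24 h library. FADS2, the delta-6 desaturase of polyunsaturated fatty acid synthesis (ENSG00000134824, chromosome 11, 61792980 to 61867354), stood at 23.1, 24.9 and 32.3 CPM at 24 h and at 92.6, 66.5 and 44.9 CPM at 72 h. The neighbouring FADS1, the delta-5 desaturase, stood at 36.9, 43.6 and 48.6 CPM and at 102.2, 86.4 and 59.9 CPM. Both were ordered replicate 1, 2, 3 from high to low at 72 h, with log2 fold changes of 1.34 (SE 0.223, adjusted edgeR p 0.024) and 0.94 (SE 0.176, adjusted p 0.0339). FADS2 kept its call without replicate 1 at 72 h (adjusted p 0.0485), and SREBF1 and FADS1 lost theirs without it (0.0607 and 0.0692). Without replicate 2 at 72 h or any one 24 h library all 3 lost their calls, at adjusted edgeR p values from 0.0712 to 0.155.

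ABCG1, a sterol exporter, stood at 19.5, 21.6 and 15.9 CPM at 24 h and at 58.1, 47.2 and 30.6 CPM at 72 h (log2 fold change 1.26, SE 0.239, adjusted edgeR p 0.0339). MYLIP, a ubiquitin ligase induced by liver X receptors, stood at 8.40, 11.6 and 11.8 CPM and at 38.3, 70.0 and 16.99 CPM (log2 fold change 1.97, SE 0.449, adjusted p 0.0444). For these, as for LSS, TM7SF2 and INSIG1, replicate 3 was the lowest of the 72 h libraries and still above the 24 h range. LSS, the cyclase that forms lanosterol, went from 38.1 ± 3.38 to 64.6 ± 6.56 CPM (SD, n = 3 each), for a log2 ratio of 0.76 (SE 0.138, adjusted p 0.0339). INSIG1, which retains the sterol-sensing complex in the endoplasmic reticulum, went from 74.5 ± 3.14 to 140.0 ± 38.7 CPM, and TM7SF2, a sterol reductase, from 13.6 ± 1.55 to 23.7 ± 4.85 CPM, with log2 fold changes of 0.91 and 0.80. HMGCS1, an early enzyme of the mevalonate pathway, had 69.8, 71.1 and 73.3 CPM at 24 h and 116.8, 101.0 and 98.4 at 72 h (log2 fold change 0.56, adjusted edgeR p 0.0475), and 37.7% of its exon length overlaps a gene on the other strand. The calls of ABCG1, MYLIP, LSS, TM7SF2, INSIG1 and HMGCS1 were lost without any one library other than replicate 3 at 72 h, at adjusted p values from 0.0642 to 0.219. ABCA1, another sterol exporter, did not pass the test, though its groups did not overlap (log2 fold change 0.69, adjusted p 0.0548). The sterol regulatory element, spelled TCACNCCAC, was in the window of 1 of 18 synthesis genes with an entry (5.56%, SREBF2, not called), against 1.15% of all promoters, and in none of the 4 called ones.

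**Figure D3:**
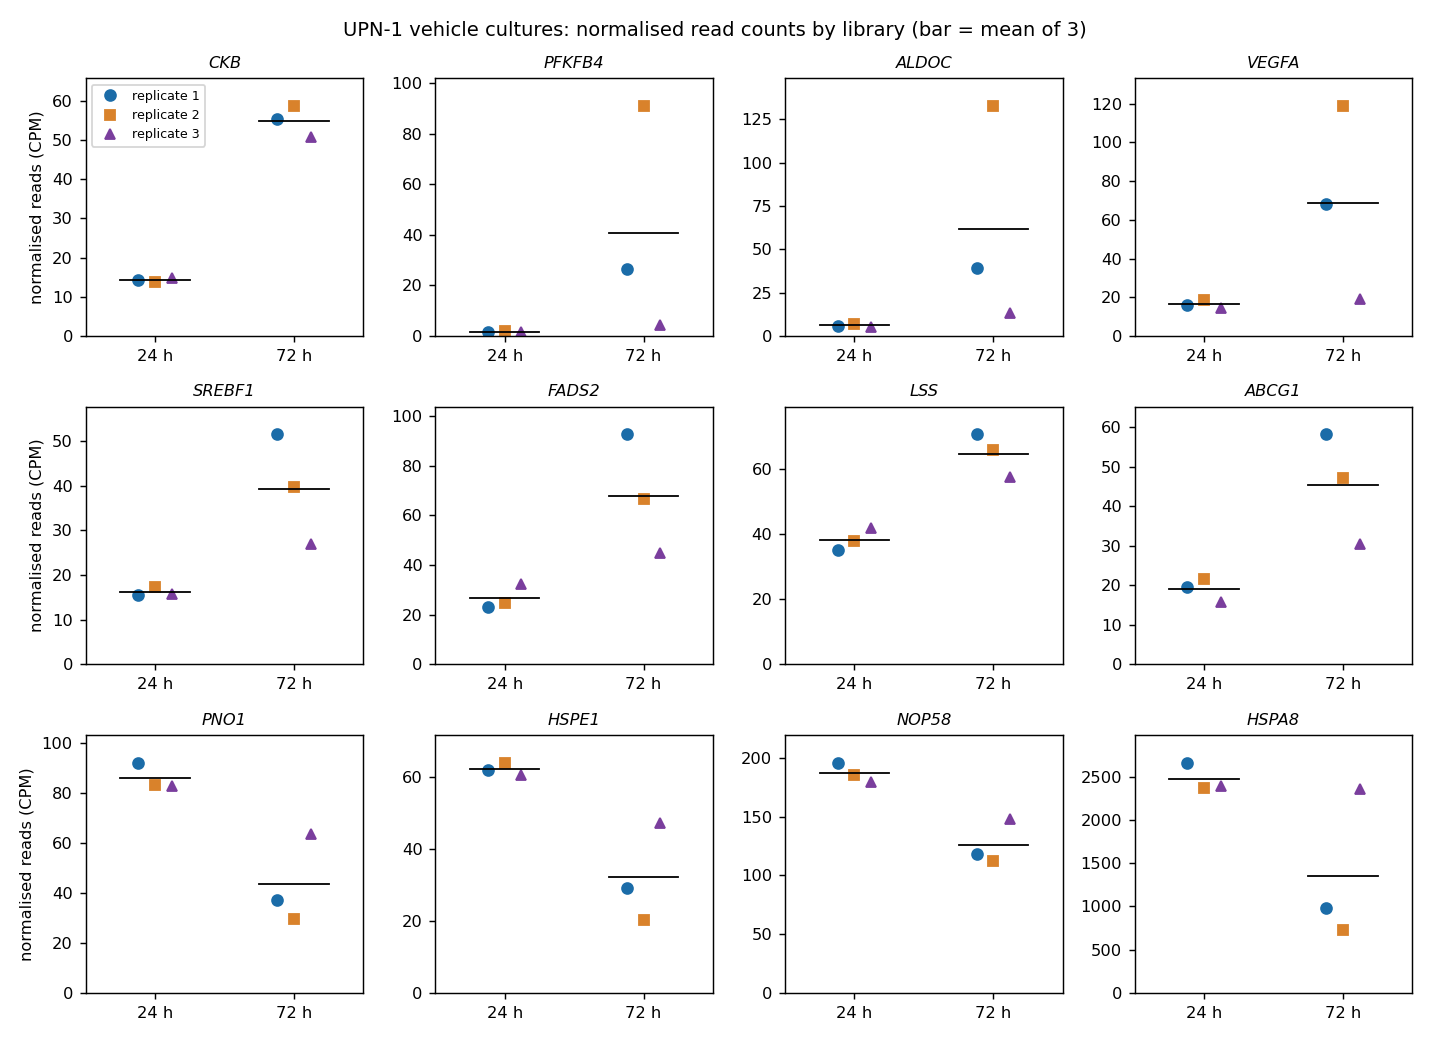
CPM (y axes, from 0, each panel with its own scale) of 12 genes in the 3 UPN-1 vehicle libraries at 24 h and the 3 at 72 h (x axes), with replicates by colour and shape and bars at the mean of 3. CKB rises alike in all 3 replicates, PFKFB4, ALDOC and VEGFA rise most in replicate 2, and the purple triangle of replicate 3 at 72 h lies nearest the 24 h values in the other panels (HSPA8 at 2356 CPM against 733 in replicate 2).

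Genes of ribosome biogenesis were lower at 72 h, again least in replicate 3. In that list 3 of 45 tested genes fell (PNO1, HSPE1 and NOP58) and none rose, where 0.118% of all genes were called lower. The log2 fold change was below 0 for 45 of 45, with a median of -0.58. At an unadjusted p under 0.05, 36 were lower (10.3% of all genes were), while DESeq2 called 14 lower (1.67% of all genes). By library the median difference from the 24 h mean was -0.64, -1.02 and -0.14 for replicates 1, 2 and 3 at 72 h. Without replicate 3, 37 of the 45 were called lower (8.8% of all genes were) and the median was -0.81. In the list of heat shock proteins, which shares HSPE1 and HSPD1 with it, 1 of 23 fell (HSPE1). At an unadjusted p under 0.05, 15 were lower and 1 higher (10.3% and 15.2% of all genes were). The medians by library were -0.75, -1.02 and -0.10. Without replicate 3, 16 were called lower and 1, the small heat shock protein HSPB1, higher (8.8% and 11.5% of all genes were).

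PNO1, an assembly factor of the small ribosomal subunit (ENSG00000115946, chromosome 2, 68157888 to 68176238), stood at 91.8, 83.2 and 82.7 CPM at 24 h and at 37.0, 29.6 and 63.6 CPM at 72 h. HSPE1, the mitochondrial co-chaperonin HSP10 (ENSG00000115541, chromosome 2, 197500140 to 197503449), stood at 62.1, 63.9 and 60.5 CPM and at 29.1, 20.2 and 47.3 CPM. NOP58, a core protein of box C/D small nucleolar particles (ENSG00000055044, chromosome 2, 202265736 to 202303661), stood at 195.6, 185.0 and 179.6 CPM and at 118.4, 112.1 and 147.8 CPM. In all 3 genes replicate 3 at 72 h lay between the other 72 h libraries and the 24 h range without touching it. The log2 fold changes were -0.98 (SE 0.216, adjusted edgeR p 0.043), -0.95 (SE 0.222, 0.0475) and -0.57 (SE 0.133, 0.0475), or -1.37, -1.33 and -0.70 without replicate 3. Without any one other library the adjusted p values of the 3 lay between 0.105 and 0.212. The chaperonin partner HSPD1 had 1436, 1427 and 1550 CPM at 24 h and 871, 628.7 and 1387 at 72 h, also without overlap, and did not pass the test (log2 fold change -0.61, adjusted edgeR p 0.138). The list's MYC itself stood at 57.8 to 99.4 CPM at 24 h and 70.3 to 74.1 at 72 h (log2 fold change -0.08, adjusted p 0.809).

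The E-box CACGTG, the motif bound by MYC and related factors, was searched in the same window. It was present for 17 of the 39 tested genes with an entry in this list of ribosome biogenesis and MYC targets (43.6%). The share was 7.43% of all promoters, those of genes not tested included. Both called genes with an entry had it. The sites of PNO1 and HSPE1 are shown with 10 bases on each side, with the E-box in capitals and offsets of 9 and -22 from the start, beside that of NAT10, an rRNA acetyltransferase that did not pass the test (offset -15).
PNO1, chr2:68157887-68157912, plus strand: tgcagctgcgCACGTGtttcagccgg
HSPE1, chr2:197500347-197500372, plus strand: gtgattttttCACGTGtcgccagggc
NAT10, chr11:34105604-34105629, plus strand: tgcgcttgcgCACGTGctgtctacca
HSPE1 and HSPD1 are transcribed away from each other, and the E-box counted for HSPD1 is that of HSPE1 read on the other strand.

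**Figure D4:**
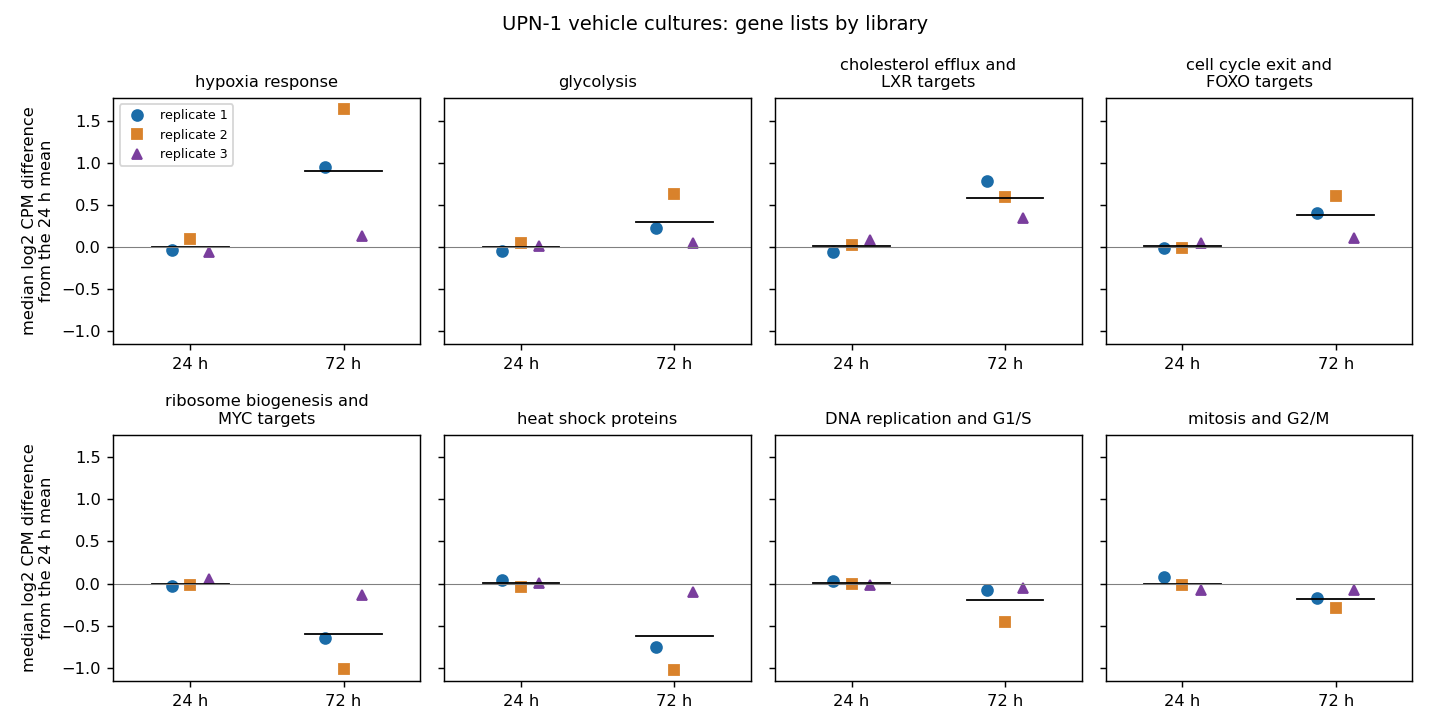
Median over the tested members of 8 gene lists of the log2 CPM difference from the 24 h mean (y axis), for each UPN-1 vehicle library at 24 and 72 h (x axis), with bars at the mean of 3. Replicate 3 at 72 h (triangles) is at 0.13 for hypoxia and -0.10 for heat shock proteins, where replicate 2 is at 1.64 and -1.02, and of the 3 libraries at 72 h it is the nearest to 0 in each of these 8 panels.

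The other large decreases were of genes with diverse roles. SEMA7A, a membrane-anchored semaphorin, fell from 1.81, 3.16 and 2.87 CPM at 24 h to 1.10, 0.901 and 0.732 CPM at 72 h, with replicate 3 the lowest (log2 fold change -1.51, SE 0.343, adjusted edgeR p 0.0444). RPP40, a subunit of RNase P and RNase MRP, stood at 11.9, 8.63 and 13.3 CPM and at 5.88, 3.97 and 6.67 CPM (log2 fold change -1.04). A4GALT, the Gb3 synthase, stood at 5.73, 5.26 and 6.82 CPM and at 2.82, 3.69 and 2.85 CPM (log2 fold change -0.93). SEMA7A and A4GALT were the ones among these in which replicate 3 was as low as replicates 1 and 2. MRPL1 and MRPS6, both of the mitochondrial ribosome, fell by 0.72 and 0.66 on the log2 scale. LANCL2, TTC27, PALS2 and CFAP57 fell by 0.67, 0.65, 0.61 and 0.82, and the adjusted edgeR p values of all genes in this paragraph lay between 0.0406 and 0.0497. Without any one library other than replicate 3 at 72 h they lay between 0.0718 and 0.218.

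Apart from the lists, the largest increases were of genes with few reads at 24 h. LRRC32, the receptor that displays latent TGF-beta, stood at 0.477, 0.421 and 0 CPM at 24 h and at 9.95, 42.7 and 1.14 CPM at 72 h, a log2 fold change of 5.995 (SE 1.36, adjusted edgeR p 0.0444). KCNN1, a calcium-activated potassium channel, stood at 0, 0.316 and 0.215 CPM and at 2.74, 11.5 and 1.30 CPM (adjusted edgeR p 0.0475), with at most 3 reads in any 24 h library, so no fold is given. LRP1, a large endocytic receptor, stood at 1.43, 1.58 and 2.01 CPM and at 7.83, 23.2 and 4.15 CPM (2.77, adjusted p 0.043). In these 3 replicate 2 was the highest and replicate 3 the lowest of the 72 h libraries, as for PFKFB4. A count of 3 reads corresponds to 0.215 to 0.316 CPM in the 24 h libraries, so the fold change of LRRC32 is imprecise. FAM171A2 stood at 1.15, 0.948 and 0.359 CPM and at 4.70, 5.68 and 3.42 CPM (2.53, SE 0.383, adjusted edgeR p 0.0211), and kept its call without replicate 1 at 72 h (0.0444) but not without replicate 2 at 72 h or any one 24 h library (0.0706 to 0.106). RTN4R, the Nogo receptor, was more even, at 0.286, 0.526 and 0.502 CPM and at 2.35, 3.88 and 1.71 CPM (2.55, adjusted edgeR p 0.0271), and it kept its call without replicate 1 at 72 h (adjusted p 0.0465). Replicate 1 at 24 h was at the level of 3 reads, so the fold change of RTN4R is imprecise too. EMP2, a tetraspan membrane protein, was lowest at 72 h in replicate 2 (6.50, 1.44 and 4.15 CPM). The scaffold NHERF2 and the non-coding RNAs OLMALINC, LINC01355 and SLC9A3-AS1 rose by 2.47, 2.36, 2.43 and 2.45 on the log2 scale. NHERF2 stood at 0.764, 0.211 and 0.502 CPM at 24 h and at 3.21, 3.605 and 1.63 CPM at 72 h. Its replicate 2 at 24 h was under the level of 3 reads, so its fold change is imprecise as well. Calls of LRRC32, KCNN1, LRP1, EMP2, NHERF2, OLMALINC and LINC01355 were lost without any one library but replicate 3 at 72 h (adjusted edgeR p from 0.0619 to 0.226), and those of RTN4R and SLC9A3-AS1 were lost without any one 24 h library or without replicate 2 at 72 h (0.0957 to 0.191).

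In several immune and cell-state lists 1 or 2 members were called higher, where 1.35% of all genes were. A single call in lists this small says little about the list. CCNG2, an atypical cyclin raised in arrested cells and a target of FOXO factors, stood at 24.8, 27.3 and 21.5 CPM at 24 h and at 66.0, 79.5 and 32.6 CPM at 72 h (log2 fold change 1.28, SE 0.271, adjusted edgeR p 0.0403). It was the 1 call among 36 tested genes of cell cycle exit and FOXO signalling. In that list 19 were higher and 2 lower at an unadjusted p under 0.05 (15.2% and 10.3% of all genes were). Without replicate 3 at 72 h, 18 were called higher and 1 lower (11.5% and 8.8% of all genes were). IFITM1, an antiviral membrane protein, went from 3.56 ± 1.31 to 10.2 ± 3.73 CPM and was the 1 call among 35 interferon response genes. NLRC5, the transactivator of MHC class I genes, stood at 28.6, 30.0 and 24.9 CPM and at 38.1, 50.4 and 38.3 CPM, and was the 1 call among 26 antigen presentation genes. For NLRC5 replicate 3 was level with replicate 1. ITGB2 and ICAM3, an integrin chain of leukocytes and one of its ligands, were the 2 calls among 22 chemokine receptor and adhesion genes. ITGB2 stood at 5.25, 6.001 and 3.87 CPM and at 17.3, 40.3 and 9.03 CPM, and ICAM3, of whose exons 75.4% overlap a gene on the other strand, at 32.8, 32.5 and 31.1 CPM and at 63.4, 66.4 and 41.0 CPM. The log2 fold changes of IFITM1, NLRC5, ITGB2 and ICAM3 were 1.54, 0.60, 2.15 and 0.82 (adjusted edgeR p 0.0444, 0.0468, 0.0433 and 0.0468). All 5 calls were lost without any one library other than replicate 3 at 72 h (0.0652 to 0.215). At an unadjusted p under 0.05 the interferon, antigen presentation and adhesion lists had 11, 6 and 7 genes higher and 1, 0 and 0 lower. Without replicate 3 at 72 h, 10, 5 and 8 of them were called higher and 1, 0 and 0 lower.

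No member of the proliferation and B-cell lists was called, where 1.35% of all genes were called higher and 0.118% lower, so that few or no calls would be reached at that share. None of 50 genes of DNA replication and the G1/S step and none of 42 of mitosis passed edgeR or DESeq2, though 10 of each were lower at an unadjusted p under 0.05 (10.3% of all genes were), and the median log2 fold changes were -0.15 and -0.19. The log2 fold change was below 0 for 42 of the 50 and 39 of the 42, against 7287 of the 15248 genes tested. Without replicate 3 at 72 h, 7 replication genes were called lower and 1 higher, and 10 mitosis genes lower, against 8.8% of all genes lower and 11.5% higher. MKI67, the Ki-67 proliferation antigen, stood at 442.1, 343.8 and 359.9 CPM at 24 h and at 315.5, 369.3 and 333.9 at 72 h, overlapping, and TOP2A at 868.9, 784.6 and 780.5 and at 559.1, 674.6 and 799.0. No gene of 29 in the list of B-cell and mantle cell lymphoma identity was called by edgeR (5 higher and 1 lower at an unadjusted p under 0.05, 4 and 1 by DESeq2, and 5 and 1 by edgeR without replicate 3 at 72 h). Of all genes, 15.2% were higher at an unadjusted p under 0.05, and DESeq2 called 5.06% higher and 1.67% lower. SOX11, a transcription factor typical of mantle cell lymphoma, stood at 62.3, 78.8 and 89.0 CPM and at 101.0, 100.2 and 80.7 CPM, and CCND1 and BTK had log2 fold changes of -0.10 and -0.19 (adjusted edgeR p 0.719 and 0.268). MS4A1, the CD20 antigen, was lower without overlap, at 502.5, 482.2 and 510.5 and at 322.9, 267.9 and 426.1 CPM (log2 fold change -0.56, adjusted edgeR p 0.0634, or 0.00374 without replicate 3). Without any one other library MS4A1 was not called (adjusted edgeR p up to 0.261). BCL2 was at 1.30 to 7.84 CPM at 72 h with replicate 3 under the 24 h range of 1.86 to 3.26, and MCL1 was nearly level (308.7 ± 3.46 and 309.2 ± 17.7 CPM, SD, n = 3 each). CDKN1A, the cyclin-dependent kinase inhibitor p21, was at 11.7, 9.79 and 8.11 CPM and at 29.2, 15.7 and 11.2 CPM (log2 fold change 0.93, adjusted p 0.106), and TXNIP, an inhibitor of glucose uptake, was high in replicate 2 alone (42.2, 245.3 and 40.3 CPM at 72 h against 35.7 to 49.0 at 24 h).

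The target family of the inhibitor was also followed in these untreated cells. KDM5B, which removes methyl groups from histone H3 lysine 4 (ENSG00000117139, chromosome 1, 202724495 to 202808487), stood at 21.5, 22.3 and 23.3 CPM at 24 h and at 47.7, 107.4 and 32.9 CPM at 72 h. All 72 h libraries were above the 24 h ones, and the log2 fold change of 1.48 (SE 0.355) just missed the threshold (adjusted edgeR p 0.0502, or 0.00331 without replicate 3). Without any one library other than replicate 3 at 72 h the adjusted edgeR p of KDM5B lay between 0.0692 and 0.237. KDM5A and KDM5C, the family members with higher counts, had log2 fold changes of -0.26 and 0.04 (adjusted edgeR p 0.270 and 0.846) with overlapping groups. None of 18 genes of the KDM5 family and of H3K4-modifying enzymes was called by edgeR. With 1.35% of all genes called higher and 0.118% lower, few or no calls would be reached in a list of this size. At an unadjusted p under 0.05, 2 were higher and 1 lower (15.2% and 10.3% of all genes were), and DESeq2 called 1 higher (5.06% of all genes).

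The genes in which replicate 3 at 72 h differed most from the mean of replicates 1 and 2 were taken from all genes of at least moderate level and are a description without a test. Those highest in replicate 3 included 3 heat shock genes. HSPA8, the constitutive HSP70 chaperone, stood at 2660, 2369 and 2393 CPM at 24 h and at 980, 733 and 2356 CPM at 72 h, and HSPH1, its nucleotide exchange factor, at 991.2, 876.4 and 964.3 and at 268.2, 262.3 and 889.1 CPM. HSPA1B, the inducible HSP70, stood at 53.9, 49.7 and 53.1 CPM and at 27.2, 26.1 and 66.4 CPM. In all 3 the third library at 72 h lay at or near the 24 h level while the other two were well below it. URB2, a ribosome biogenesis factor, and MAP1A, a microtubule-associated protein, followed the same pattern, with replicate 3 above the mean of the other two by 1.23 and 1.53 on the log2 scale, and so did ENSG00000255959 (1.28). Those lowest in replicate 3 were LRRC32, PFKFB4, NDUFA4L2, ENSG00000265168, ELFN2 and SLC16A3, by -3.99, -3.52, -3.15, -2.79, -2.68 and -2.60. NDUFA4L2, a mitochondrial protein induced by hypoxia, stood at 4.62, 57.5 and 1.71 CPM at 72 h, so that replicate 2 alone was high.

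The same interval was measured in UPN-1 cells given GS716054, in 6 libraries of their own. There 2471 genes (16.2%) were called at 72 against 24 h, 1596 higher (10.5%) and 875 lower (5.74%). Without one inhibitor library that count was 254, 992 and 417 for replicates 1, 2 and 3 at 24 h and 784, 413 and 3778 for those at 72 h. Of the 224 genes called in vehicle cultures, 207 (92.4%) were called in the same direction with the inhibitor, which is 8.38% of the calls made there. The 2 sets of libraries share the model's estimate of spread, and their same-numbered libraries deviated together, so the 2 results are not independent. The hypoxia list had 10 called higher of 25, the ribosome biogenesis list 22 lower of 45 and the heat shock list 6 lower and 1 higher of 23. By library the hypoxia medians were 1.02, 1.51 and 0.19 at 72 h in replicates 1, 2 and 3, so replicate 3 was again the lowest. On the first principal component the inhibitor-treated libraries at 72 h scored 44.2, 61.8 and 18.8. CKB stood at 28.5, 37.1 and 25.5 CPM at 24 h and at 184.9, 156.1 and 180.4 CPM at 72 h with the inhibitor, a log2 fold change of 2.52 (adjusted edgeR p 8.94e-08) beside 1.94 without it. The difference of 0.58 (SE 0.192) had an unadjusted p of 0.0086 and an adjusted p of 1.00. No gene's change over time differed between inhibitor and vehicle by edgeR in the fit without pairing at an adjusted p under 0.05 (0%), 232 had an unadjusted p under 0.05, and DESeq2 called 1. Vehicle and inhibitor libraries with the same number deviated together at both times, and with the number as a block within each time, added after seeing the data, 7 genes were called (0.0459%), 6 with a higher (0.0393%) and 1, NIBAN3, with a lower change under the inhibitor (0.00656%). CKB was not among them (difference 0.60, SE 0.147, adjusted edgeR p 0.254), and 1164 genes had an unadjusted p under 0.05. A4GALT, called lower in vehicle, had a log2 fold change of -0.08 with the inhibitor (difference 0.86, SE 0.292, adjusted edgeR p 1.00), and HSPE1 had -0.62 (adjusted p 0.0626).

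Culture time was also compared with that of the other lines under vehicle, in a fit of all 36 libraries over 17980 genes. In that fit 181 genes (1.01%) were called in UPN-1, 5834 (32.4%) in JEKO and 633 (3.52%) in MINO. In UPN-1, 155 were higher (0.862%) and 26 lower (0.145%), and in MINO 421 (2.34%) and 212 (1.18%). For 5 genes (0.0278%), 4 with a higher (0.0222%) and 1 with a lower value (0.00556%), the change in UPN-1 differed from the mean change of JEKO and MINO by edgeR at an adjusted p under 0.05, and 1362 had an unadjusted p under 0.05, while DESeq2 called 30. Without one UPN-1 library the 5 became 1 and 0 without replicates 2 and 3 at 24 h, and 0, 2 and 14 without replicates 1, 2 and 3 at 72 h. CNN2, the actin-binding calponin 2 (ENSG00000064666, chromosome 19, 1026586 to 1039068), went in UPN-1 from 14.1, 15.6 and 8.79 CPM to 34.5, 30.3 and 22.1 CPM, in JEKO from 218.8, 227.6 and 222.3 to 105.5, 197.8 and 168.9 CPM, and in MINO from 107.6, 85.2 and 80.2 to 52.1, 57.5 and 51.2 CPM. The UPN-1 libraries were all higher at 72 h and those of both other lines all lower, with log2 fold changes of 1.18, -0.50 and -0.76 and a difference of 1.82 (SE 0.290, adjusted edgeR p 0.00995). ATL3, an endoplasmic reticulum-shaping GTPase, and PEX7, the receptor that imports peroxisomal proteins, showed the same opposite signs, with differences of 0.99 (SE 0.178, adjusted p 0.0259) and 1.44 (SE 0.272, 0.0305). FAM171A2 rose by 2.52 on the log2 scale in UPN-1 beside 0.59 in JEKO and 0.17 in MINO, a difference of 2.14 (SE 0.396, 0.028). ASS1, the arginine synthesis enzyme, stood in UPN-1 at 40.1, 38.2 and 36.4 CPM at 24 h and at 65.8, 38.9 and 25.5 at 72 h, while it went in JEKO from 11.5 to 16.3 CPM up to 69.1 to 576.1 CPM and in MINO from 12.5 to 20.3 up to 173.6 to 208 CPM, a difference of -3.91 (SE 0.706, 0.0259). CNN2 lost its call without UPN-1 replicate 3 at 24 h (adjusted edgeR p 0.0677) or replicate 1 at 72 h (0.0559), and ASS1 without any of the 6 UPN-1 vehicle libraries (0.0507 to 0.101). ATL3 kept its call without replicate 3 at 72 h alone, FAM171A2 without that library or replicate 1 at 24 h, and PEX7 without replicate 2 or 3 at 72 h, and otherwise the 3 genes had adjusted p values from 0.0519 to 0.323.

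**Figure D5:**
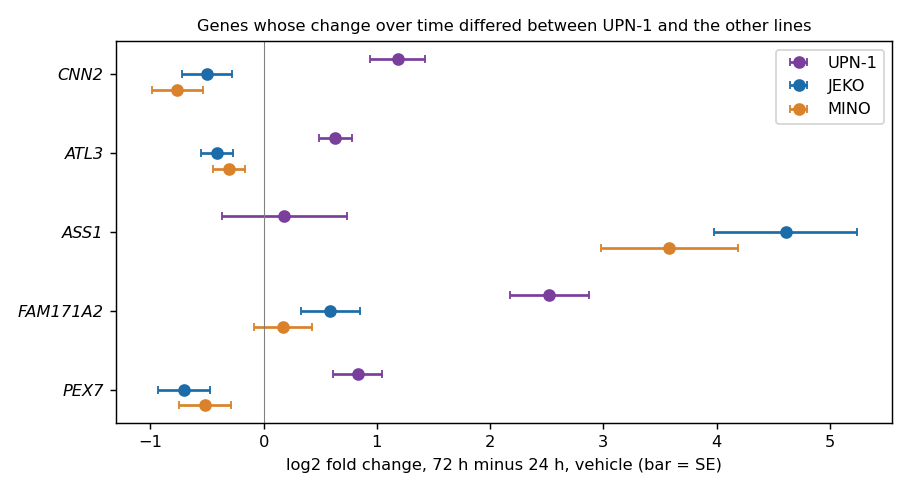
Log2 fold change of 72 over 24 h in vehicle cultures (x axis, points with SE bars) of the 5 genes (y axis) whose change in UPN-1 (purple) differed from the mean of JEKO (blue) and MINO (orange). CNN2, ATL3 and PEX7 lie above 0 in UPN-1 and below 0 in the other lines, and ASS1 lies near 0 in UPN-1 and at 4.61 and 3.58 in JEKO and MINO.

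The list medians in the 3 lines, whose differences were not tested, were as follows. Hypoxia genes had a median log2 fold change of 1.04 in UPN-1, 0.65 in JEKO and 1.65 in MINO. Ribosome biogenesis genes had -0.59, -0.78 and -0.45, and DNA replication genes had -0.16, -0.91 and -0.55. Efflux genes had 0.55, 0.12 and 0.29.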

How the data were processed

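RNA-seq gene counts of 36 libraries were used as deposited. Per the submitters' processing notes, the authors aligned reads with HISAT2 2.2.1 and counted them per gene with HTSeq 0.13.5 on GRCh38. The annotation release, strand setting and counting options are not given in the sources used here. The 12 UPN-1 libraries had 43.3 to 45.0% of reads in no feature and 2.22 to 2.52% ambiguous; these rows were left out of library sizes and tests. Of 58302 gene identifiers 57532 had a name.

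Genes were filtered with edgeR's filterByExpr (minimum count 10, minimum total 15), scaled by TMM and tested with edgeR 4.0.16 quasi-likelihood fits of the 12 UPN-1 libraries (8 residual degrees of freedom) or, between lines, of all 36 (24), in R 4.3.3, with limma 3.58.1 and Benjamini-Hochberg adjustment. SE is the absolute log2 fold change over the root of F. DESeq2 1.42.0, other scalings, filters, fits, a replicate block and leaving out each library were alternatives. Recovery of known changes was tested on simulated data drawn with 1 common spread, which does not cover the wider scatter at 72 h. Same-numbered vehicle and inhibitor libraries deviated together across genes (r = 0.169, 0.107 and 0.238 at 24 h, 0.483, 0.561 and 0.581 at 72 h), a pairing taken from the data as the labels give only numbers; those of 24 and 72 h did not do so for every number. Coordinates are from GENCODE and sequences from RefSeq.

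Gene lists and members were chosen with earlier results of these data known. Genes were named by these rules: the 12 largest increases and decreases among called genes without overlap and with mean log2 CPM of at least 1; up to 4 called members a list, or else its most abundant member; 12 preset genes; the 6 genes highest and 6 lowest in 72 h replicate 3 against the other two; genes called in all 6 fits without one library; and called differences between lines or treatments. Genes named outside these rules, such as BNIP3, CA9, ADM, ABCA1, GAPDH, LDHA, HSPD1, HSPB1, MS4A1, NIBAN3 and NAT10, were chosen after their values were seen.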

Additional observations from a re-analysis of the deposited data

Results flagged for a closer look

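The change over culture time in UPN-1 vehicle cells differed from the mean change of JEKO and MINO for 5 genes by a test of the difference itself (edgeR, 36 libraries). The differences on the log2 scale were 1.82 for CNN2, 0.99 for ATL3, -3.91 for ASS1, 2.14 for FAM171A2 and 1.44 for PEX7, with adjusted p values of 0.00995, 0.0259, 0.0259, 0.028 and 0.0305. In ASS1 the JEKO libraries at 72 h ranged from 69.1 to 576.1 CPM, and FAM171A2 stood at only 0.366 to 1.16 CPM in UPN-1 at 24 h. Leaving out single UPN-1 libraries ended each of these calls at least once, with the adjusted p at most 0.0677 for CNN2 and up to 0.323 for FAM171A2.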

How the results depend on the processing

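The number of genes called at 72 against 24 h in vehicle cultures was 224, and it was 391 with library size alone (97.2% higher against 92.0%; the median of all genes moved from 0.02 to 0.079), 1845 with no low-count filter, 1 with only the 6 libraries compared and 1026 with DESeq2. Leaving out libraries gave between 1 and 3091, and for the inhibitor-treated cultures between 254 and 3778 in place of 2471. For the difference between lines (5 genes) it gave 0 to 14, and DESeq2 called 30. For the difference between inhibitor and vehicle (0 genes) DESeq2 called 1. Without the filter edgeR estimated an infinite prior degrees of freedom, so each gene took the common spread in place of its own and the 1845 calls are no sign of stability; in the other edgeR fits the prior lay between 6.19 and 17.6. Other causes were not tested.

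With the replicate number as a block, vehicle cultures gave 2784 calls over 12 libraries and 1136 over the 6 compared, inhibitor-treated cultures 4831, the inhibitor difference 1, or 7 with a block within each time (chosen after seeing the data), and the line difference 38 with a block within each line. The numbers were not taken to pair the times: deviations of same-numbered vehicle libraries at 24 and 72 h correlated at 0.044, 0.011 and 0.15 across genes, and not every library correlated best with its own number. Between treatments the same numbers gave 0.169, 0.107 and 0.238 at 24 h and 0.483, 0.561 and 0.581 at 72 h, each library best with its own, so they were taken to pair the treatments. The main fit does not use this pairing and counts the 12 libraries as independent.

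Of the 43 named genes called, all kept their call without 72 h replicate 3, with the block over 12 libraries and with DESeq2, 38 with library size alone, 17 with all 36 libraries in the fit and 1 with only the 6 compared; none changed sign. Changes of sign were seen for 11 named genes, none of them called. With library size alone CD79B was at 0.0115 and SLC39A10 at 0.0568, which was at 0.026 under the stricter filter and 0.00033 with only the 6 libraries. MCL1 was at -0.000986 with DESeq2 size factors, -0.00787 with all 36 libraries and -0.00103 with DESeq2, and JCHAIN at -0.0182 with the replicate block. Leaving out libraries gave -0.154 to 0.0212 for CD79B, -0.318 to 0.32 for JCHAIN, -0.0338 to 0.0452 for MCL1, -0.026 to 0.142 for PSAP, -0.0908 to 0.129 for SLC39A10, -0.0161 to 0.0772 for KDM1A, -0.143 to 0.0318 for TRAC, -0.259 to 0.18 for MYC, -0.0438 to 0.116 for KDM5C, -0.209 to 1.79 for TXNIP and -0.24 to 0.465 for ASS1. With 3 libraries at each time, the spread at 72 h (median SD 0.261 on the log2 scale) limited which small changes could be detected.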
